A study of Mus musculus with 4 samples.

Results

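The skin kallikreins and Spink5 are a set of secreted serine proteases and the inhibitor that holds several of them in check. The set was defined by name as 10 genes, Klk5 to Klk11, Klk13, Klk14 and Spink5, and every array probe that carries one of those names was taken. Of the 10 genes, 9 had a probe of that name, with 12 probes among the 41174 on the array. No probe was named Klk13, and the only Klk14 probe was not well above background on both arrays of either group. The other 8 genes were among the 17555 tested.

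The skin came from the back of male mice aged 42 days, full thickness and labelled as telogen, when hair follicles rest. The group called cKO had Fgf18, a secreted growth factor, knocked out conditionally in keratin 5-positive epithelial cells, and the group called WT was C57BL/6, which is also the strain the labels give for cKO. The labels name neither the Cre line nor the deleted part of the gene, and whole skin keeps the dermis, fat and muscle in which the gene was not targeted. Each genotype is represented by a single RNA pool from 3 mice, hybridised to 2 one-colour arrays. Each group is therefore 1 pool with technical duplicates, and every standard deviation, standard error, interval and p-value below measures the spread between duplicate arrays. What the tests set against each other is therefore 2 pools, not 2 genotypes.

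Tissue kallikreins are trypsin-like or chymotrypsin-like proteases made as inactive precursors, and in the uppermost living layers of the epidermis they activate one another in a cascade. Klk5 and Klk7 are best known for cutting the corneodesmosomes that hold dead surface cells together, so that these cells are shed. Spink5 encodes LEKTI, an inhibitor secreted by the same keratinocytes, whose loss causes Netherton syndrome with overactive kallikreins and a leaking skin barrier. The genes Klk4 to Klk15 and the rodent Klk1b genes lie side by side on mouse chromosome 7, whereas Spink5 lies on another chromosome.

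The probes behind the main results are shown because each gene's value rests on them. Each is 60 bases long, and capitals mark the longest run that the probe shares with the probe of another kallikrein.
Klk10: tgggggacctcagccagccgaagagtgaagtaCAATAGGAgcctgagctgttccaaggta
Klk6: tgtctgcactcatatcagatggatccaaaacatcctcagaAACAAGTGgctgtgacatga
Klk5: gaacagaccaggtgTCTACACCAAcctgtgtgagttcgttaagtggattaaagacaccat
Klk8: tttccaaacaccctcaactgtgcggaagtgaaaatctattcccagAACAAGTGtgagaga
The Klk10 probe maps to chr7:51039077-51039720 on mm9, a stretch of 644 bases for a probe of 60, so that it crosses at least 1 splice junction. The Klk6 probe maps to chr7:51084748-51084807, the Klk5 probe to chr7:51106169-51106228 and the Klk8 probe to chr7:51057455-51057514, each without a gap. Over the 11 kallikrein probes of the set, the longest run shared with the probe of another kallikrein was between 6 and 10 bases. The transcripts themselves were not compared with the probes here.

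Klk10 and Klk6 rose in the cKO pool, by 2.42-fold and 2.02-fold. By the brightest probe of each gene, the other 6 measured members had changes of at most 1.25-fold in either direction. A dimmer Klk9 probe was 1.40-fold lower and not called. A gene was called when its limma adjusted p was under 0.05 and its change at least 1.5-fold, and the words rose and fell are kept for such genes. Thus 2 of 8 members were called higher, against 5.67% of all genes tested. By limma 0 of 8 members were called lower, against 4.82% of all genes. At an unadjusted p under 0.05, 3 of the 8 were lower. No share over all genes was computed for the unadjusted counts here and below. By adjusted p alone 33.6% of all genes were lower and 22.2% higher, so the unadjusted counts are not read as a result about any list. Together 2 of 8 were called in either direction, against 10.5% of all genes. By the limma adjusted p alone 5 of 8 members passed, against 55.8% of all genes, with 3 of them higher (22.2% of all genes) and 2 lower (33.6%). Of the 11 member probes tested one by one, 2 were called and both were higher, against 9.72% of all probes called in either direction and 4.92% called higher. The median log2 change was -0.06 over the 8 members and -0.05 over all genes tested. The cKO and WT arrays did not overlap for any of the 8 members, which was also true of 81.9% of all genes. Levels below are processed signals divided by the 75th percentile of their array, so that 1 is the level of that percentile.

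**Figure D1:**
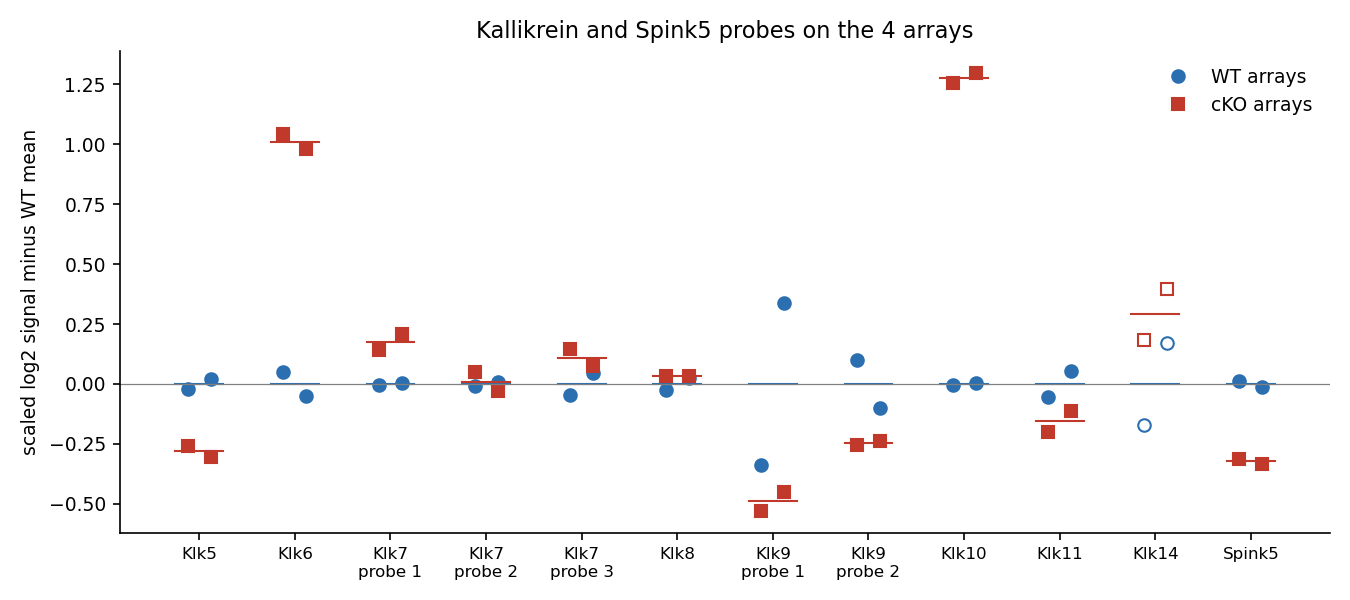
Scaled log2 signal of each of the 12 probes on each array, minus the mean of the WT arrays for that probe. Squares are the cKO arrays, circles the WT arrays, short lines the group means, and open symbols the Klk14 probe, which did not pass the filter on dim probes. The cKO arrays stand apart from the WT arrays by 1.25 for Klk10 and by 0.93 for Klk6, whereas the other probes lie closer to the WT mean.

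Klk10, first described as a gene silenced in breast cancer cells, had levels of 1.88 and 1.94 on the cKO arrays, against 0.786 and 0.792 on the WT arrays. Both cKO arrays were high and the groups did not overlap, with a nearest gap of 1.25 on the log2 scale against a larger gap between duplicates of 0.044. On the scaled log2 axis this is 0.93 ± 0.031 for cKO against -0.34 ± 0.0083 for WT (SD over the duplicates, n = 2). The log2 change was 1.28 (SE 0.028, limma adjusted p = 0.000686), with a 95% interval from 1.19 to 1.36. Of all genes tested, 2.29% had a change as high or higher.

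Klk6, also called neurosin and known from oligodendrocytes as well as epithelia, had levels of 1.58 and 1.52 on the cKO arrays, against 0.796 and 0.743 on the WT arrays. The groups were again apart, by 0.93 on the log2 scale between the nearest arrays and by 0.10 between the more distant duplicates. The scaled log2 levels were 0.63 ± 0.043 for cKO against -0.38 ± 0.070 for WT (SD over the duplicates, n = 2). The log2 change was 1.01 (SE 0.050, limma adjusted p = 0.00194), with a 95% interval from 0.86 to 1.16. A change as high or higher was seen in 3.25% of all genes tested. Both genes kept their call under each of the 15 alternative settings.

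The main proteases of shedding were not called. Klk5, a trypsin-like enzyme that can activate itself and then Klk7, had levels of 3.07 and 2.97 on the cKO arrays, against 3.62 and 3.73 on the WT arrays. The cKO arrays were the lower ones without overlap. The log2 change of Klk5 was -0.28 (SE 0.034, limma adjusted p = 0.00806), a 1.22-fold difference that passed the adjusted p and missed the fold threshold. Of all genes tested, 20.4% had a change as low or lower.

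Klk7, the chymotrypsin-like enzyme of the horny layer, was read by 3 probes. The brightest had levels of 20.1 and 21.1 on the cKO arrays, against 18.2 and 18.3 on the WT arrays. Its log2 change was 0.17 (SE 0.034, limma adjusted p = 0.0242), and normexp background correction with quantile normalization gave 0.31. Averaging the Klk7 probes gave 0.098 (limma adjusted p = 0.0691). Without the filter on dim probes the change stayed at 0.17 and the limma adjusted p was 0.0989. Klk7 thus did not pass the adjusted p in every setting. The probe at chr7:51068393-51068639 on mm9, which crosses a splice junction, had levels of 11.1 and 10.5 on the cKO arrays, against 10.7 and 10.8 on the WT arrays. These overlapped, with a log2 change of 0.0093 (adjusted p = 0.859 by limma over all probes). The remaining probe gave 0.11 (adjusted p = 0.16). None of the 3 probes reached the fold threshold.

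Klk14, a trypsin-like activator of the cascade, was at the limit of detection. Its probe was well above background on 1 of the 2 cKO arrays and on neither WT array, with levels of 0.0170 and 0.0197 in cKO and of 0.0133 and 0.0168 in WT. No change is given for it.

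Spink5 was read by a single probe at chr18:44156359-44158457 on mm9, where 60 bases spread over 2099 and so cross at least 1 splice junction. Its levels were 4.16 and 4.09 on the cKO arrays, against 5.21 and 5.11 on the WT arrays. The duplicates were closer to each other than to the other pool, with a larger duplicate gap of 0.028 and a nearest gap between pools of 0.30 on the log2 scale. The log2 change was -0.32 (SE 0.026, limma adjusted p = 0.00386), with a 95% interval from -0.40 to -0.24. This 1.25-fold difference missed the fold threshold, and 17.1% of all genes tested had a change as low or lower. Spink5 and Klk5, an inhibitor and an enzyme it blocks, had log2 changes of -0.32 and -0.28, whereas Klk7 had 0.17. Changes as low as that of Klk5 were seen in 20.4% of all genes tested, so the pair does not stand out.

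Klk8, Klk9 and Klk11 lie between or beside the genes that rose. Klk8, known as neuropsin, had levels of 5.41 and 5.42 on the cKO arrays, against 5.19 and 5.39 on the WT arrays. Its log2 change was 0.03 with a 95% interval from -0.06 to 0.12 (limma adjusted p = 0.396). For Klk11 the levels were 0.119 and 0.126 in cKO and 0.131 and 0.142 in WT. Its log2 change of -0.16 had an interval from -0.33 to 0.02 (limma adjusted p = 0.0998). The log2 change of Klk11 was -0.10 without WT replicate 2.

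Klk9 was read by 2 probes. The brighter one had levels of 0.484 and 0.489 in cKO and of 0.619 and 0.538 in WT, and its log2 change was -0.25 (SE 0.081, adjusted p = 0.0751 in limma). The log2 change of Klk9 was -0.15 without WT replicate 1 and -0.35 without WT replicate 2 (adjusted p = 0.021 by limma), neither of them called. The dimmer one, plotted as probe 1, had 0.0548 and 0.0579 in cKO against 0.0626 and 0.10 in WT. Its WT duplicates lay 0.67 apart on the log2 scale, more than the gap between the pools. Its log2 change of -0.49 was not called (adjusted p = 0.207 by limma over all probes). Without WT replicate 1 it was -0.83 and called (adjusted p = 0.0224).

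**Figure D2:**
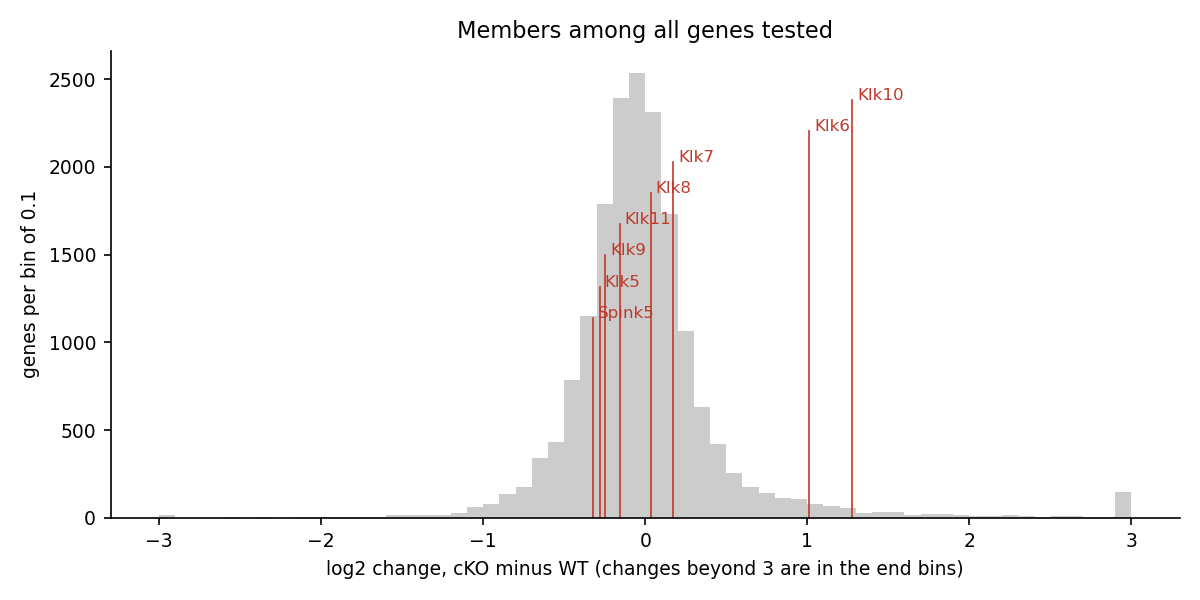
Distribution of the log2 change of all 17555 genes tested, in bins of 0.1, with a red line at the change of each of the 8 members; the heights of the lines carry no meaning. Klk10 at 1.28 and Klk6 at 1.01 lie in the upper tail, and the other 6 members lie between -0.32 and 0.17 in the body of the distribution.

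Along the chromosome the called members did not form a block. In the order of the mm9 coordinates, Klk12 (log2 change 1.35) was followed by Klk11 (-0.16), Klk10 (1.28), Klk9 (-0.25), Klk8 (0.03), Klk7 (0.17), Klk6 (1.01) and Klk5 (-0.28). Each of the 2 members that rose therefore stood between neighbours that were not called. Klk12, named here for its place in the row, had levels of 0.120 and 0.117 in cKO and of 0.0539 and 0.0405 in WT. The log2 change of Klk12 lost its call without cKO replicate 1 (adjusted p = 0.0547) and without cKO replicate 2 (0.0522), and normexp with quantile normalization gave 0.77.

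Of 16 kallikreins outside the set with a probe, 11 were tested and 8 rose, against 5.67% of all genes. Of the 11, Klk15, Klk1b21 and Klk1b27 were not well above background in WT, and Klk15 was not called (adjusted p = 0.117). The median log2 change of other tissue kallikreins that were well above background on all 4 arrays was 1.04, against -0.05 for all genes. By limma 0 of the 11 were called lower, and 0 were lower at an unadjusted p under 0.05. The largest changes were in the rodent Klk1b genes, whose products include processors of growth factors in salivary gland. Klk1b24 had levels of 1.60 and 1.57 in cKO and of 0.0743 and 0.0911 in WT, a 19.2-fold rise (adjusted p = 0.000904). Klk1b26, read by a probe that the scanner file names Egfbp2, rose 4.56-fold. RefSeq gives Egfbp2 as another name of Klk1b26 and the hyphenated Egfbp-2 as one of Klk13, and the probe maps to chr7:51271716-51272144 on mm9, beside the probe named Klk1b26 at chr7:51271516-51271671. Klk1b21 and Klk1b27 were not well above background in WT and were at least 6.94-fold and at least 5.99-fold higher. Their fitted log2 changes of 4.19 and 4.81 became 2.03 and 2.09 with normexp and quantile normalization. The bound sets the mean of the bright pool against the lowest signal well above background on each WT array. The Klk1b genes are closely related, and a probe of one may read another. The probes differ in this: the longest run shared with the probe of another kallikrein was 22 bases for Klk1b27, 18 for Klk1b24 and 8 for Klk1b21.

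**Figure D3:**
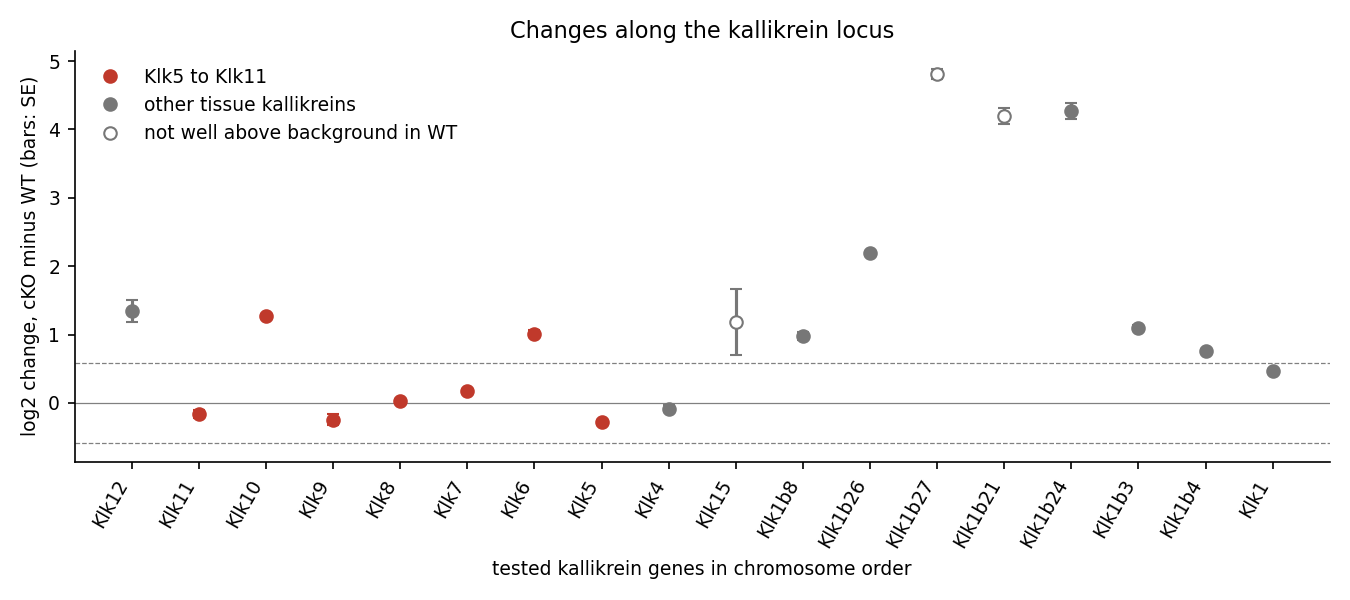
Log2 change of each tested kallikrein gene in chromosome order, with its standard error; red marks the members, grey the other tissue kallikreins, open symbols genes that were dim on both WT arrays, and dashed lines a 1.5-fold change. Klk10 and Klk6 stand at 1.28 and 1.01 between members near 0, and Klk1b24 at 4.26 has the largest change among genes measured in both pools; the open symbols are fitted values against a dim group.

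The stretches before the starts of Klk10 and Klk6, the 2 members that rose, are shown as 250 bases from RefSeq on GRCm38.p6, plus strand. Whether the 2 genes share a regulator was not tested. Capitals mark the letters TTAAAA.
Klk10, chr7:43780804-43781053: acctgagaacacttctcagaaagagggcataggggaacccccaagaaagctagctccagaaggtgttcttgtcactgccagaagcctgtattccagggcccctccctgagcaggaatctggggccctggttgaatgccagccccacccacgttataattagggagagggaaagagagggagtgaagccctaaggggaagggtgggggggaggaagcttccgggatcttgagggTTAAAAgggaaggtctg
Klk6, chr7:43825200-43825449: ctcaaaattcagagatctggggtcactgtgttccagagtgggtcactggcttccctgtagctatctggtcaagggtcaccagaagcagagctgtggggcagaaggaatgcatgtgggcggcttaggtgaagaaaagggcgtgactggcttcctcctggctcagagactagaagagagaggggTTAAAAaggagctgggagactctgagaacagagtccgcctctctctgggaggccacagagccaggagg
All 9 kallikreins of the set had an entry, with 11 starts in all. Both strands were searched. The letters TTAAAA were picked after the sequences were seen, so the count of starts that hold them is not a test. The TATA box was searched as TATAAA. The AP-1 site was searched as TGANTCA. The core of the TCF/LEF site was searched as CTTTGA. The picked letters, TTAAAA, were found before 4 of the 11 starts, in Klk10, Klk6, Klk8 and Klk11, against 17.7% of 32851 promoters of the same length. They began 17 bases before the start of Klk10, 26 before that of Klk8, 68 before the Klk6 start shown and 233 before 1 of the 2 Klk11 starts. Klk6 had another start, with the window chr7:43824294-43824543, which is not shown and did not hold the letters. Klk8 and Klk11 were not called, so that the letters did not separate the members that rose from the rest. The TATA box, the AP-1 site and the TCF/LEF core were in 0 of the 11 windows, against 12.4%, 6.75% and 13.8% of all promoters.

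Of 8 proteases tested on a list of 10 that act upstream of the kallikreins, 2 rose, against 5.67% of all genes. The list median was 0.06. Of the 2, Tmprss11e passed the filter only through the cKO arrays. With signal well above background asked for on all 4 arrays, 1 was called higher. St14, which encodes matriptase, the membrane protease that activates kallikrein precursors, had levels of 4.03 on both cKO arrays and of 2.46 and 2.55 on the WT arrays. It rose 1.61-fold (log2 0.68, SE 0.029, limma adjusted p = 0.00163). Its partner Prss8, or prostasin, had a log2 change of 0.34 and missed the fold threshold. Tmprss11e, another membrane protease, was not well above background in WT and was at least 1.20-fold higher. Its call rests on a fitted log2 change of 2.16 against the dim WT arrays, and the bound alone does not reach 1.5-fold. By limma 0 of the 8 were called lower. At an unadjusted p under 0.05, 3 were lower and 4 were higher, the 2 called genes among them.

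Of 11 other protease inhibitors tested, 3 were called higher and 3 lower, against 5.67% and 4.82% of all genes. Among those called higher, 2 (Spink6 and Spink12) passed the filter only through the cKO arrays, where they were bright. With signal well above background asked for on all 4 arrays, 1 inhibitor was called higher and 2 lower. The median log2 change of the 11 was -0.0090, the 2 fitted values against dim WT arrays included. Spink6 and Spink12, Kazal-type inhibitors encoded next to Spink5, were not well above background in WT. Spink12 had levels of 0.246 and 0.245 in cKO and of 0.0265 and 0.0196 in WT and was at least 8.53-fold higher. Its limma adjusted p of 0.00194 belongs to the fitted log2 change against the dim WT arrays, not to that bound. Spink6 was at least 5.06-fold higher, with cKO duplicates of 0.202 and 0.104. The log2 change of Spink12 was 2.0 under normexp and quantile normalization in place of 3.43, and that of Spink6 was 1.63 in place of 4.0. Spint1, the membrane inhibitor of matriptase, had levels of 5.33 and 5.37 in cKO and of 3.24 and 3.21 in WT and rose 1.66-fold. Serpina12, or vaspin, which inhibits Klk7, fell 1.80-fold, and Wfdc12 fell 1.68-fold. Spint1 was named after its value was seen.

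Genes on the list of substrates and receptors of the kallikreins had mostly small changes. Of 12 genes tested on that list, 2 fell, against 4.82% of all genes. The median log2 change was -0.25 over the list and -0.05 over all genes. Dsg1c, a desmoglein, fell 1.62-fold. Tslp, also on the list, is a cytokine induced by protease signalling in keratinocytes and not itself a substrate or a receptor. It fell 1.52-fold, a call lost with normexp and quantile normalization (log2 -0.55) and under another scaling (-0.57). Without WT replicate 2 the log2 change of Tslp was -0.57, short of 1.5-fold. The corneodesmosome proteins Cdsn, Dsg1a and Dsc1 had log2 changes of -0.11, -0.22 and -0.32. The protease-activated receptors F2rl1 and F2r had 0.32 and 0.38. By limma 0 of the 12 were called higher. At an unadjusted p under 0.05, 8 were lower, the 2 that fell among them, and 3 were higher.

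**Figure D4:**
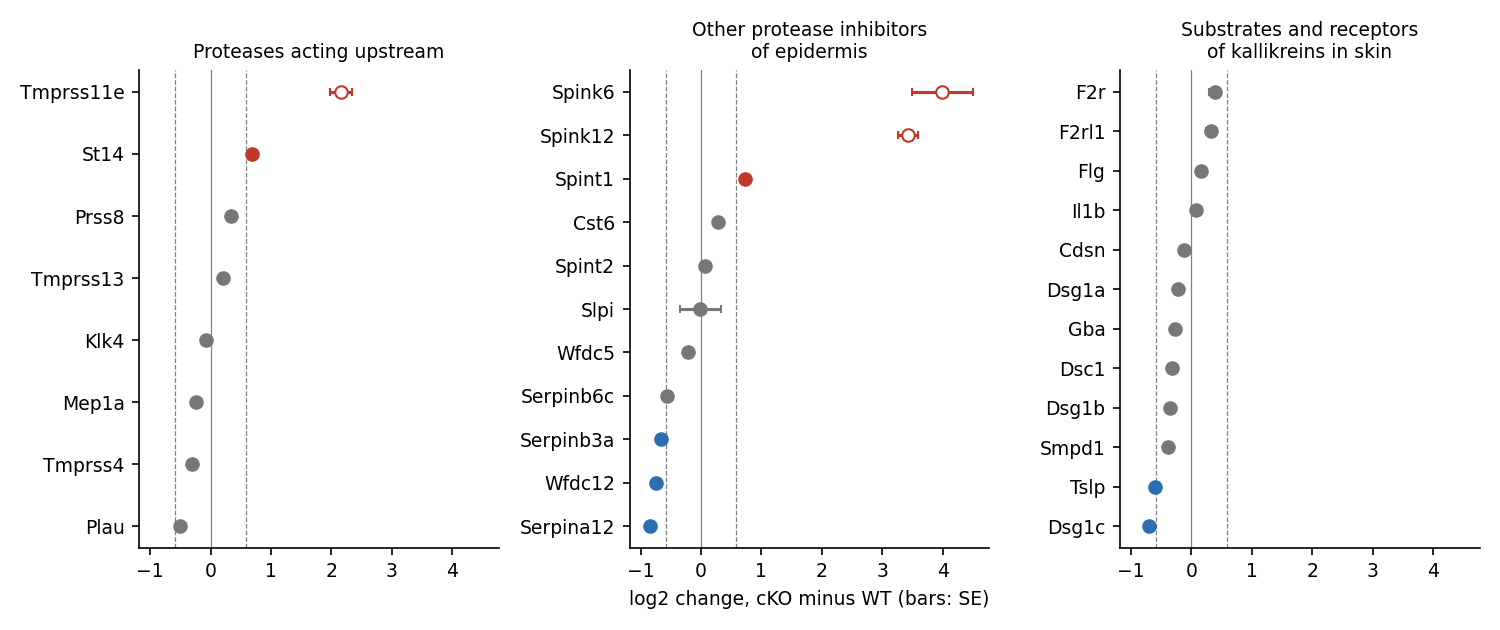
Log2 change and standard error of each tested gene in the lists of upstream proteases, other inhibitors, and substrates and receptors. Red marks called rises, blue called falls, open symbols genes that were dim on both WT arrays, and dashed lines a 1.5-fold change; St14 at 0.68 and Spint1 at 0.73 are called, and Cdsn, Dsg1a and Dsc1 lie between -0.32 and -0.11.

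Marker genes of the cell types of skin were read on the same 4 arrays, so that they too compare 2 pools. All 6 tested hair shaft keratins rose, and their summed level was 112 to 113 on the cKO arrays, against 0.261 to 0.295 on the WT arrays, where Krt34, Krt85 and Krt86 were not well above background. All 5 tested inner root sheath markers rose, with sums of 216 to 219.6 against 1.54 to 1.58, and Krt25 was not well above background in WT. These are genes of the growing follicle, although both groups are labelled telogen. Of 11 markers of differentiated epidermis 1 rose, the dim Krt2, with levels of 0.0933 and 0.0957 in cKO and of 0.0571 and 0.0654 in WT. At an unadjusted p under 0.05, 7 of the 11 were lower and 3 were higher, Krt2 among them. Their summed level was 413 to 416 in cKO and 490 to 517 in WT. Most of it came from Lor (156 and 155 in cKO, 189 and 206 in WT) and Krt10 (166 and 163, 195 and 204). Of 20 cornified layer genes 4 rose (Sprr1a, Rptn, Tgm3 and Krt2) with a median of -0.12, and by limma 0 were called lower. At an unadjusted p under 0.05, 11 were lower and 7 were higher, the 4 that rose among them. Krt2 was not called without cKO replicate 1, without cKO replicate 2, without WT replicate 1 or with normexp and quantile normalization. Of 5 companion layer and stress keratins Krt16 and Krt6a rose, by 3.40-fold and 2.10-fold. Basal epidermis markers were not called by limma in 7 of 7 cases, with 2 higher at an unadjusted p under 0.05 and sums of 536 to 544 against 543 to 573. Other cell types moved too. All 3 tested melanocyte markers rose, with sums of 10.97 to 11.2 against 7.09 to 7.15. Of 6 skeletal muscle markers 3 fell and all 6 were lower at an unadjusted p under 0.05, with sums of 611 on both cKO arrays and of 863 to 902 in WT. Of 4 adipocyte markers 1 fell, Lep, with sums of 248 to 256 against 265 to 286. By limma 0 of 4 sebaceous gland, 0 of 5 immune and 0 of 2 endothelial markers were called, with 3, 3 and 2 of them lower and 1, 1 and 0 higher at an unadjusted p under 0.05. Their sums were 30.99 to 31.5 against 41.4 to 44.5, 20.3 to 20.7 against 26.2 to 26.7, and 1.46 to 1.48 against 1.63 to 1.64. The part of these markers in the Klk10, Klk6 and Spink5 values was not tested. In whole skin, fewer cells of a type and less RNA per cell cannot be told apart. Fgf18 itself had a log2 change of -0.33 (limma adjusted p = 0.00353) and was not called.

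By size and spread over the 4 arrays, the profiles closest to that of Klk10 among 16628 genes detected on each of the arrays belonged to 4930438A08Rik, Tgm3, Prss53, Ccnb1 and Ska3. Tgm3 encodes a transglutaminase of the hair follicle and horny layer, Ccnb1 a mitotic cyclin, and Ska3 a kinetochore protein. The distance was that between values centred on each gene's mean, from 0.012 to 0.034 log2 units. With 2 pools it ranks little more than the size of the change, and these genes rose between 2.39-fold and 2.45-fold.

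**Figure D5:**
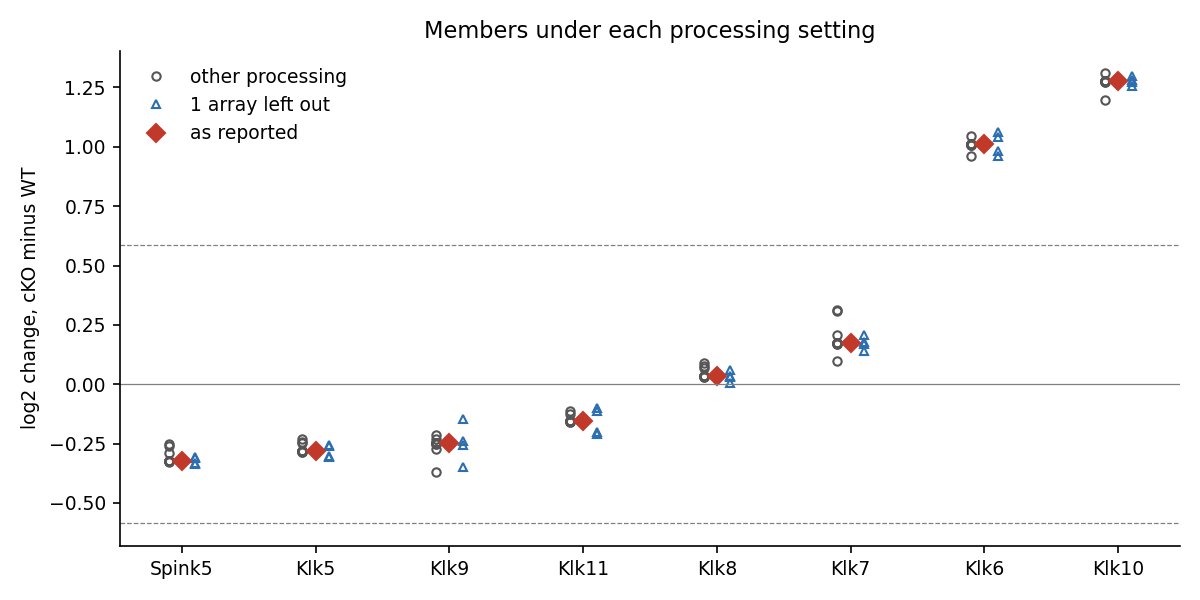
Log2 change of each member as reported (diamonds), under 11 other ways of processing (circles) and with 1 array left out (triangles); dashed lines mark a 1.5-fold change. Klk10 stays between 1.20 and 1.31 and Klk6 between 0.96 and 1.06, and the other 6 members stay inside the dashed lines in every setting plotted.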

How the data were processed

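Per the file headers, spots were read by Feature Extraction 10.7.3.1 (Agilent). The authors' deposited spot intensity, background-subtracted and detrended within each array, was the starting value. The authors' deposited processed values were that intensity divided by 1 number per array, a linear ratio that was not centred per gene, with column medians of 0.101 and 0.0983 (cKO) and 0.0987 and 0.101 (WT). Per the labels, 200 ng RNA was labelled with Cy3. Control spots were left out, and log2 intensity minus the array's 75th percentile over 43379 spots was used. That percentile was 1403 and 1453 for cKO, against 1271 and 1316 for WT, 62.1% to 69.1% of spots were well above background, and 0 were saturated. Spots marked as outliers were missing, and spots of a probe were averaged. Kept probes were well above background on both duplicates of cKO, of WT or of both, and a gene was its brightest kept probe. Names were updated through a RefSeq table of GRCm38.p6; probe coordinates (mm9) come from the scanner files. Tests used limma 3.58.1 in R 4.3.3 (two-sided, Benjamini-Hochberg over 17555 genes or 26070 probes, no covariates) and were checked on simulated arrays of the cKO and WT comparison over 17555 genes, where 20.9% of genes changed 1.5-fold were called, 77.6% of those changed 2-fold and 97.0% of those changed 4-fold. The simulation changed 67, 67 and 66 genes at these folds. In the data 9797 genes passed the adjusted p, so the simulated rates need not hold there. A change of 1.5-fold also lies on the fold threshold itself, where many such genes miss it. The number of arrays limits the precision, and with 1 pool per genotype differences from mouse to mouse were not measured.

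The members and lists were chosen with earlier results of these data known. Named were all members, up to 4 called genes of each list by size of change, Fgf18 and the 5 genes most like Klk10; other genes were named after their values were seen. Same-numbered arrays did not deviate together (r = -0.043 across genes), so the numbers were not taken as pairs. Alternatives were other background corrections and scalings, the authors' processed values, other filters, averaging a gene's probes, keeping outlier spots, trended robust moderation, a replicate block and omitting single arrays. All arrays shared 1 slide.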

Additional observations from a re-analysis of the deposited data

How the results depend on the processing

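All 8 members kept their direction and their side of the call threshold in each of 15 alternatives. With the replicate block 2 members were called higher, as without it, and the block changed no call of a member. Leaving out 1 array gave 2 members called higher each time, and 0 to 1 member probes called lower; the dim Klk9 probe was the 1, without WT replicate 1. The count of all genes called lower was 847, and 483 with normexp and quantile normalization; the cause was not tested. With a filter that asks for signal well above background on all 4 arrays, which removes genes dim in WT, 1 upstream protease, 1 inhibitor and 6 of the other kallikreins were called higher. Of these kallikreins 8 had been called, and 9 were with the replicate block, where Klk15 gained a call; 7 to 8 were with 1 array left out. After averaging a gene's probes, 1 upstream protease was called lower (Plau, log2 -0.62). Of the substrates and receptors, 1 fell with normexp and quantile normalization and 1 when scaling on the probes detected on each array, and 1 to 2 fell when 1 array was left out. Of the cornified layer genes, 1 was called lower with trended robust moderation, and 0 to 1 when 1 array was left out. Values near 0 changed sign: the log2 change of Slpi and the log2 change of Sprr1b were both 0.024 under that scaling. With 1 array left out, Slpi ran from -0.45 to 0.43, Sprr1b from -0.13 to 0.11, the log2 change of Spint2 from -0.015 to 0.15 and the Klk7 probe across a junction (log2 change of probe A_52_P418429) from -0.030 to 0.049. A pool left with 1 array was taken to vary like the other.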

Other observations

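Among the Klk1b genes, probes of close sequence gave different readings. The probe of Klk1b27, which was at least 5.99-fold higher in cKO, and that of Klk1b11 are identical at 54 of 60 bases, and capitals mark the 6 that differ.
Klk1b27: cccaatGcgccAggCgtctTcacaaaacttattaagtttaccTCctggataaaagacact
Klk1b11: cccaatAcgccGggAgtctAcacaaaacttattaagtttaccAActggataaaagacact
Klk1b27 had levels of 0.168 and 0.176 on the cKO arrays and of 0.00580 and 0.00651 on the WT arrays. Klk1b11 was not well above background on any array, with levels of 0.00535 and 0.00377 in cKO and of 0.00619 and 0.00699 in WT. The 2 probes of Klk1b3 both rose, by log2 2.17 and 1.10, the larger value from the dimmer probe. A second Klk1b26 probe was not well above background on any of the 4 arrays, at 0.00869 and 0.00652 in cKO and 0.0256 and 0.0209 in WT, whereas the probe named Egfbp2 rose 4.56-fold.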
